A study of Macaca mulatta with 4 samples.

Results

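The genes described here encode RNAs that the growing oocyte makes, stores and uses during meiosis and at fertilization. They were chosen by name, with earlier results of these data known. They are the meiotic kinases WEE2 and MOS, the zona pellucida glycoproteins ZP2 and ZP3, and the secreted factors GDF9 and BMP15. The others are the regulators of stored RNA BTG4 and ZAR1 and the piRNA factor GTSF1. Each symbol was matched to an Ensembl macaque gene. Of these 9 genes, 7 were matched by identifier to a row among the 21314 genes of the count table, and GDF9 and BMP15 were not analysed here. Of the 7, 6 passed the filter on low counts and were tested, and MOS did not pass it. MOS is therefore given by its counts.

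A mammalian oocyte is transcriptionally silent at the end of its growth and carries a large store of RNA into the embryo. That store is translated and then degraded in steps, and the embryo's own genome takes over. Shortening of the poly(A) tail by the CCR4-NOT deadenylase, with BTG4 as an adaptor, starts the degradation. Several of the genes here are textbook oocyte genes, and their RNA is known to be low once the embryo's genome is active.

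The study sequenced RNA of morulae, the compacting ball of cells that precedes the blastocyst, from the rhesus macaque (Macaca mulatta), in 4 libraries. The 2 AG libraries came from androgenetic embryos, whose nuclear genome is paternal only, and the 2 GG libraries from gynogenetic embryos, whose nuclear genome is maternal only. As background, embryos of both kinds start from oocyte cytoplasm and so from an oocyte's RNA. The labels give no treatment, strain or age, do not say how the uniparental embryos were made, do not make clear how many embryos entered a library, and do not say whether replicates came from separate animals. The p-values therefore measure the spread between these libraries, part of which may be technical.

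Total estimated counts ran from 14129608 to 29733977 per library. Levels are in CPM, counts scaled by TMM-adjusted totals, and are not per length, so they are compared between libraries and not between genes. Where a pair of values is given for AG or GG, replicate 1 comes first. The AG libraries were less alike than the GG libraries. AG replicate 1 was over 2-fold above AG replicate 2 in 14.2% of tested genes and over 2-fold below it in 17.9%, against 8.12% and 9.73% for GG replicate 1 and GG replicate 2. The pluripotency gene POU5F1 stood at 181 and 389 CPM in the AG pair and 465 and 479 CPM in the GG pair. Of 10 tested morula and pluripotency markers, 3 were called higher in GG, 1 was called lower and 6, POU5F1 among them, were not called. Of all tested genes, 6.34% were called higher in GG and 6.58% lower. DPPA2, KRT18 and CDH1 were higher in GG, with log2 fold changes, GG minus AG, of 3.34, 3.24 and 2.11. DPPA4 was lower in GG, with a log2 fold change of -1.98. CDX2 and SOX2 had no matched row. Of 12 matched cumulus and granulosa markers, the cells that surround an oocyte, 5 had at most 3 counts in every library; FSHR was at 0 in all 4, and LHCGR and INHA had a single count in AG replicate 2. The summed level of that list was 7.19 and 17.1 CPM in the AG pair and 16.8 and 40.3 CPM in the GG pair, most of it CYP11A1 and TNFAIP6, neither of which was called. Of 4 tested blood markers, PTPRC alone was called, lower in GG. Of 8 matched sperm markers, 5 had at most 3 counts in every library, with PRM2, TNP2, ODF1 and SMCP at 0 in all 4. AKAP4 and ACR had at most 6 counts in a library. SPATA18 alone was tested and was not called, with 8 and 16 counts in the AG pair and 21 and 22 in the GG pair. Genome activation markers, which peak before the morula stage, were higher in AG in 9 of 9 tested genes (edgeR, adjusted p under 0.05). Of all tested genes, 6.58% were called in that direction. The median log2 fold change of these markers, GG minus AG, was -7.95. Their summed levels were 9518 and 6328 CPM in the AG pair and 2369 and 1771 CPM in the GG pair. Most of the GG sum was KHDC1L, chosen after its values were seen. KHDC1L stood at 5389 and 4066 CPM in the AG pair and 2317 and 1717 CPM in the GG pair. The part of the genome activation markers in the results below was not tested. No oocyte or earlier embryo library was among the 4, so what was left of the stored RNA was compared between groups and not with its starting level. In pooled embryos, fewer cells holding an RNA and less RNA per cell cannot be told apart, nor can slower decay and new transcription.

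WEE2 and GTSF1 were higher in GG than in AG morulae, and ZP2, ZP3, BTG4 and ZAR1 were not called. WEE2 rose 22.2-fold and GTSF1 rose 7.20-fold. Of the 6 tested genes, 2 passed the test upwards and 0 downwards in GG, where 6.34% of the 13227 tested genes were called higher in GG and 6.58% were called lower (edgeR quasi-likelihood test, Benjamini-Hochberg adjusted p under 0.05 over all tested genes). Fitted log2 fold changes, GG minus AG, were positive for all 6, with a median of 1.33. Over all tested genes 51.1% were positive and the median was 0.04. The 6 were chosen with earlier results of these data known, so these counts are no independent evidence of direction. The sign of ZP2, ZP3 and ZAR1 turned when 1 library was left out. Both calls were lost without GG replicate 1 and without GG replicate 2, when 1 GG library remained and the spread came from the AG pair.

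**Figure D1:**
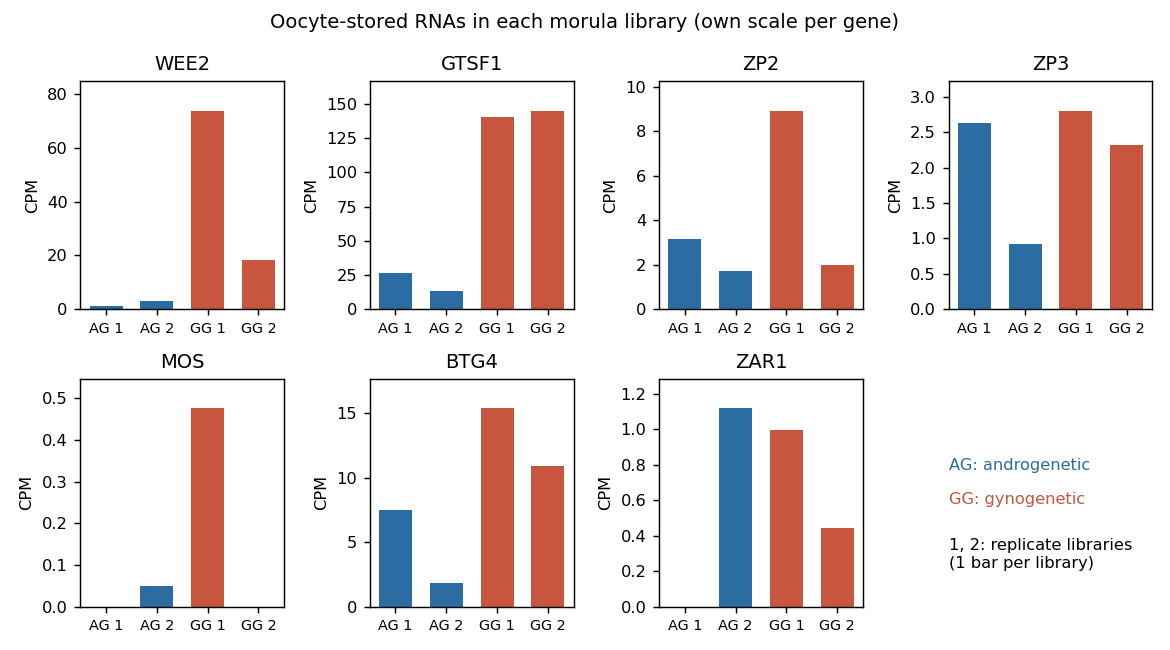
Each panel shows 1 gene, with its level in CPM on the vertical axis (own scale, starting at 0) and 1 bar for each AG and GG library. The GG bars of WEE2, GTSF1 and BTG4 all stand above their AG bars, whereas ZP2, ZP3, MOS and ZAR1 overlap between the groups, and the levels of MOS and ZAR1 rest on at most 22 counts in a library.

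WEE2 (ENSMMUG00000044167) encodes an oocyte kinase that phosphorylates CDK1 and so helps hold the oocyte in meiotic prophase and later lets the egg leave metaphase. It stood at 1.14 and 2.95 CPM in AG replicates 1 and 2 and at 73.8 and 18.4 CPM in GG replicates 1 and 2. Both GG libraries lay far above both AG libraries, but the GG libraries also differed from each other. The means were 2.04 ± 1.28 CPM in the AG pair and 46.1 ± 39.2 CPM in the GG pair (SD, n = 2), and the log2 fold change was 4.47 ± 0.88 SE (edgeR adjusted p = 0.0340). The adjusted p was 0.160 without GG replicate 1 and 0.0573 without GG replicate 2, with log2 fold changes of 3.16 and 5.14. GG replicate 1 exceeded GG replicate 2 by 4.01-fold (95% counting interval 3.63 to 4.43). The strand setting of the counts is not given in the sources used here, so reads from any antisense partner of these genes cannot be told apart from their own.

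The somatic relatives of WEE2 were not called. WEE1, which inhibits CDK1 in most dividing cells, stood at 2.99 and 2.23 CPM in the AG pair and 4.04 and 5.39 CPM in the GG pair (log2 fold change 0.85 ± 0.56 SE, adjusted p = 0.349). PKMYT1, the membrane-bound kinase of the same family, stood at 1.99 and 5.59 CPM in the AG pair and 8.07 and 5.39 CPM in the GG pair and overlapped between the groups (0.82 ± 0.67, adjusted p = 0.448). Whether the change of WEE2 differed from theirs was not tested.

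MOS (ENSMMUG00000015236) encodes the kinase that switches on the MAP kinase cascade in the maturing oocyte and keeps the egg in metaphase of the second division. It had 0 and 1 counts in AG replicates 1 and 2 and 10 and 0 counts in GG replicates 1 and 2. The 10 counts in GG replicate 1 correspond to 0.475 CPM (95% counting interval 0.228 to 0.873). A count of 0 allows up to 0.214 CPM in AG replicate 1 and 0.102 CPM in GG replicate 2, taking 3 counts as the limit. With 1 count in AG, the ratio of GG to AG was 6.69 (95% counting interval 0.952 to 291), so a difference between the groups was not detectable at this depth. Intervals and limits of this kind cover counting error only, since the labels name no molecular identifiers.

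Most other genes of meiotic arrest and maturation were not called. Of 26 on a list of CDK1 regulators, cyclins, the MAP kinase cascade and egg activation genes, 23 matched and 21 were tested. In GG, 1 was called higher (6.34% over all tested genes), 2 were called lower (6.58%) and 18 were not called (median log2 fold change -0.49). RPS6KA1, a ribosomal S6 kinase downstream of MAP kinase, stood at 8.26 and 4.88 CPM in the AG pair and 32.4 and 40.2 CPM in the GG pair (2.47 ± 0.43, adjusted p = 0.0275). FBXO5, an inhibitor of the anaphase-promoting complex, stood at 358 and 294 CPM in the AG pair and 123 and 100.2 CPM in the GG pair (-1.55 ± 0.26, adjusted p = 0.0262). CDK1 itself, the target of WEE2, stood at 741 and 779 CPM in the AG pair and 548 and 528 CPM in the GG pair and was not called (-0.50 ± 0.21, adjusted p = 0.163). CDK1 was chosen for its link to WEE2 and falls outside the rule for named genes.

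The zona pellucida is the glycoprotein coat that the oocyte secretes around itself, and ZP2 is the component that sperm bind and that is cleaved after fertilization. ZP2 (ENSMMUG00000016759) stood at 3.13 and 1.73 CPM in AG replicates 1 and 2 and at 8.93 and 1.98 CPM in GG replicates 1 and 2. GG replicate 2 lay between the AG libraries, and GG replicate 1 lay above all others. The log2 fold change was 1.17 ± 0.86 SE (adjusted p = 0.401) and became -0.28 without GG replicate 1. Within GG, replicate 1 exceeded replicate 2 by 4.51-fold (95% counting interval 3.35 to 6.17), close to the ratio seen for WEE2, and the GG difference of ZP2 was thus set by 1 library.

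ZP3 (ENSMMUG00000003637), the partner of ZP2 in the zona filaments, stood at 2.64 and 0.914 CPM in the AG pair and 2.80 and 2.32 CPM in the GG pair. The libraries of the groups overlapped. The log2 fold change was 0.54 ± 0.75 SE (adjusted p = 0.667), and -0.06 without AG replicate 2. Of the other zona proteins, ZP4 stood at 1.50 and 0.559 CPM in the AG pair and 1.61 and 1.94 CPM in the GG pair (0.80 ± 0.78, adjusted p = 0.529). ZP1, which cross-links the filaments, had 3, 18, 3 and 31 counts in AG replicates 1 and 2 and GG replicates 1 and 2. Neither was called, so 0 of 4 tested zona genes passed the test over all genes (0 also with DESeq2 and 0 at an unadjusted p under 0.05). Since edgeR called 12.9% of all tested genes, 0 of 4 does not set the zona genes apart.

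GDF9 and BMP15 are TGF-beta family factors that the oocyte secretes to its surrounding cells. Neither was matched by its current Ensembl identifier; 68.8% of the table's genes could be given a symbol, and either gene may be counted under an identifier without one. Of 11 genes for their receptors, SMAD transducers and the protease FURIN, 9 were tested. In GG, 2 were called higher (6.34% over all tested genes), 0 were called lower (6.58%) and 7 were not called (median log2 fold change 0.47). TGFBR1, a type I receptor through which GDF9 signals, stood at 1.64 and 2.08 CPM in the AG pair and 7.93 and 10.7 CPM in the GG pair (2.32 ± 0.53, adjusted p = 0.0462; 0.0531 without AG replicate 1). SMAD3, a transducer of that receptor, had 0 and 2 counts in AG and 44 and 112 counts in GG, a ratio of 52.2 (95% counting interval 14.2 to 435; adjusted p = 0.0388). These receptors and SMADs also serve other TGF-beta family ligands.

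BTG4 (ENSMMUG00000021438), the adaptor that brings the CCR4-NOT deadenylase to maternal RNA, stood at 7.48 and 1.88 CPM in AG replicates 1 and 2 and at 15.4 and 10.9 CPM in GG replicates 1 and 2. Both GG libraries lay above both AG libraries, as they did for 33.4% of all tested genes. The difference did not pass the test, with a log2 fold change of 1.50 ± 0.73 SE (edgeR adjusted p = 0.220). AG replicate 1 exceeded AG replicate 2 by 3.98-fold (95% counting interval 2.71 to 5.96). Without AG replicate 1 the log2 fold change was 2.79 and BTG4 was called (adjusted p = 0.0257).

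BTG3, a relative of BTG4 that many tissues express, was called lower in GG, at 215 and 230 CPM in the AG pair and 105 and 100.5 CPM in the GG pair (-1.12 ± 0.24, adjusted p = 0.0395). Whether its change differed from that of BTG4 was not tested. Among 23 tested genes of deadenylation and RNA decay, 0 were called higher in GG (6.34% over all tested genes) and 21 were not called (median log2 fold change 0.20). BTG3 was 1 of 2 called higher in AG (6.58% over all tested genes). The other was YTHDF2, which binds RNA carrying N6-methyladenosine and sends it to decay, at 453 and 607 CPM in the AG pair and 126 and 139 CPM in the GG pair (-2.00 ± 0.26, adjusted p = 0.0164). None of the 10 tested CNOT genes, which encode CCR4-NOT subunits and associated factors, was called by edgeR over all genes (0 of 10 also by DESeq2 and at an unadjusted p under 0.05). The share called by edgeR over all tested genes was 12.9%, so 0 of 10 does not set them apart.

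ZAR1 (ENSMMUG00000006704) encodes a zinc finger protein that binds and stores RNA in the oocyte. It had 0 and 22 counts in AG replicates 1 and 2 and 21 and 13 counts in GG replicates 1 and 2. These are 0 and 1.12 CPM in the AG pair and 0.997 and 0.443 CPM in the GG pair, with the highest and the lowest library both in AG. The log2 fold change was 0.31 ± 1.48 SE (adjusted p = 0.909), with -0.65 without AG replicate 1 and -0.36 without GG replicate 1, so no direction can be given. Its relative ZAR1L had 6, 16, 16 and 3 counts in the same order of libraries. Of 12 tested genes for proteins that bind stored RNA, 0 were called in either direction by edgeR, beside 12.9% of all tested genes. At an unadjusted p under 0.05 there were 2, CPEB4 and LSM14A, and DESeq2 called both lower in GG. Of the 12 fitted values, 11 were negative (median log2 fold change -0.74).

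GTSF1 (ENSMMUG00000003758) encodes a small zinc finger protein that helps PIWI proteins silence transposons in the germ line. It stood at 26.7 and 13.0 CPM in AG replicates 1 and 2 and at 141 and 145 CPM in GG replicates 1 and 2. The GG libraries were nearly equal (ratio of replicate 1 to replicate 2 0.970, 95% counting interval 0.925 to 1.02), and both lay above both AG libraries. The means were 19.9 ± 9.70 CPM in the AG pair and 143 ± 3.12 CPM in the GG pair (SD, n = 2), with a log2 fold change of 2.85 ± 0.43 SE (adjusted p = 0.0209). Without GG replicate 1 or GG replicate 2 the log2 fold change was 2.88 or 2.79, but the adjusted p was 0.109 or 0.124. Its deposited values were not whole numbers, as estimated counts can be where reads are divided among transcripts.

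On a list of piRNA pathway genes, DDX4 and MAEL fell in GG, TDRD3 rose and most were not called. Of the 20 genes listed beside GTSF1, 17 were tested. In GG, 2 were called lower (6.58% over all tested genes), 1 was called higher (6.34%) and 14 were not called (median log2 fold change -1.05). DDX4, the germ cell RNA helicase also known as VASA, stood at 360 and 257 CPM in the AG pair and 11.4 and 19.5 CPM in the GG pair (-4.32 ± 0.41, adjusted p = 0.00837). MAEL, a transposon-silencing factor, stood at 738 and 361 CPM in the AG pair and 72.9 and 52.4 CPM in the GG pair (-3.13 ± 0.43, adjusted p = 0.0180). TDRD3, a Tudor domain protein known mainly as the partner of a topoisomerase outside the piRNA pathway, stood at 5.63 and 6.25 CPM in the AG pair and 19.8 and 21.5 CPM in the GG pair (1.79 ± 0.39, adjusted p = 0.0403). PIWIL2, a PIWI gene, stood at 34.2 and 13.7 CPM in the AG pair and 6.79 and 5.29 CPM in the GG pair and was not called (-1.99 ± 0.56, adjusted p = 0.0704); it was chosen after its values were seen. GTSF1L, the relative of GTSF1, had 0 counts in all 4 libraries.

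**Figure D2:**
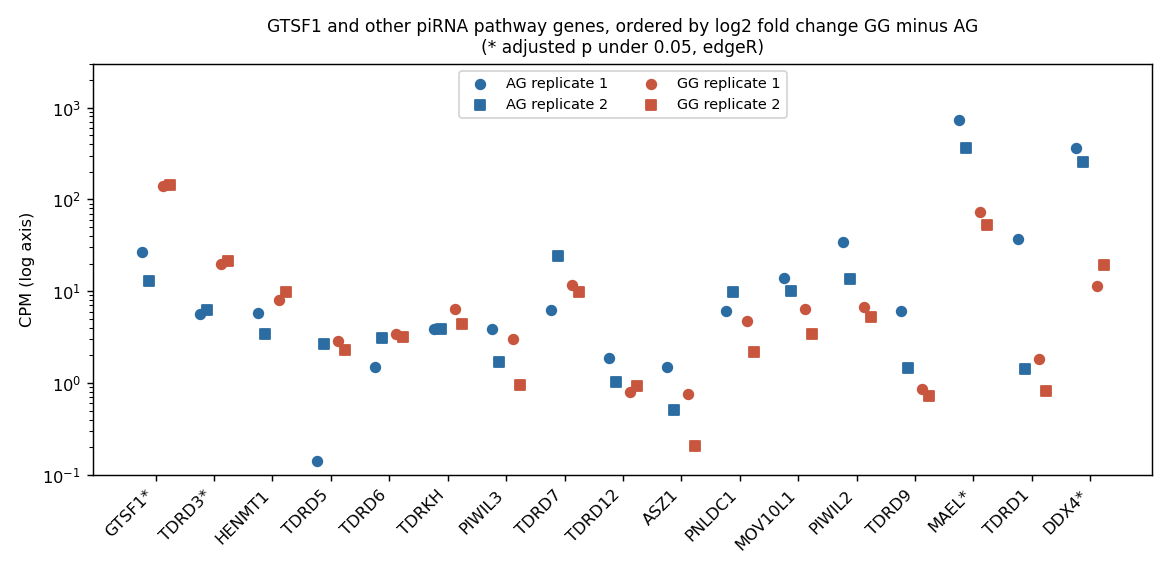
Levels in CPM (vertical axis, log scale) of GTSF1 and of piRNA pathway genes tested and counted in every library, ordered from the highest to the lowest log2 fold change, with 1 point per AG or GG library. GTSF1 lies at 141 and 145 CPM in the GG pair against 26.7 and 13.0 CPM in AG, whereas MAEL and DDX4 lie at 257 to 738 CPM in the AG pair and 11.4 to 72.9 CPM in the GG pair.

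In a list of oocyte transcription factors and germ cell nuclear genes, SOHLH2 rose and GCNA fell in GG. FIGLA and NOBOX, the factors known to switch on zona and other oocyte genes, did not pass the filter, with at most 12 counts in a library. SOHLH2, a helix-loop-helix factor of early oocyte growth, stood at 7.41 and 11.7 CPM in the AG pair and 122 and 103 CPM in the GG pair (3.56 ± 0.38, adjusted p = 0.0116). GCNA, a nuclear protein of germ cells and not a known oocyte transcription factor, stood at 54.4 and 88.6 CPM in the AG pair and 0.142 and 0.511 CPM in the GG pair (-7.69 ± 0.71, adjusted p = 0.00821). These were the 2 called among 4 tested, beside 12.9% called over all tested genes.

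Among other oocyte-stored RNAs, NLRP7 and NLRP11 rose in GG and HSF2 fell. Of 28 tested, 6 were called higher in GG (6.34% over all tested genes), 1 was called lower (6.58%) and 21 were not called (median log2 fold change 0.82). Earlier results of these data had shown that 4 of the 6, KHDC3L, NLRP2, ZFP57 and KPNA7, were higher in GG, so this count is no independent evidence of direction. NLRP7, a maternal-effect gene of the egg's subcortical complex, stood at 71.1 and 101 CPM in the AG pair and 1038 and 1179 CPM in the GG pair (3.69 ± 0.29, adjusted p = 0.00585). NLRP11, of the same family, stood at 0.784 and 0.356 CPM in the AG pair and 10.5 and 6.82 CPM in the GG pair (3.94 ± 0.70, adjusted p = 0.0287). The log2 fold changes of KHDC3L, NLRP2, ZFP57 and KPNA7 were 4.63, 2.85, 3.36 and 4.61, and without AG replicate 1 KPNA7 was no longer called (adjusted p = 0.0656). HSF2, a heat shock factor, fell from 64.0 and 62.4 CPM in the AG pair to 9.59 and 16.5 CPM in the GG pair (log2 fold change -2.27 ± 0.39, adjusted p = 0.0270). NLRP genes are a family of related genes, and their estimated counts may be uncertain, which was not tested.

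**Figure D3:**
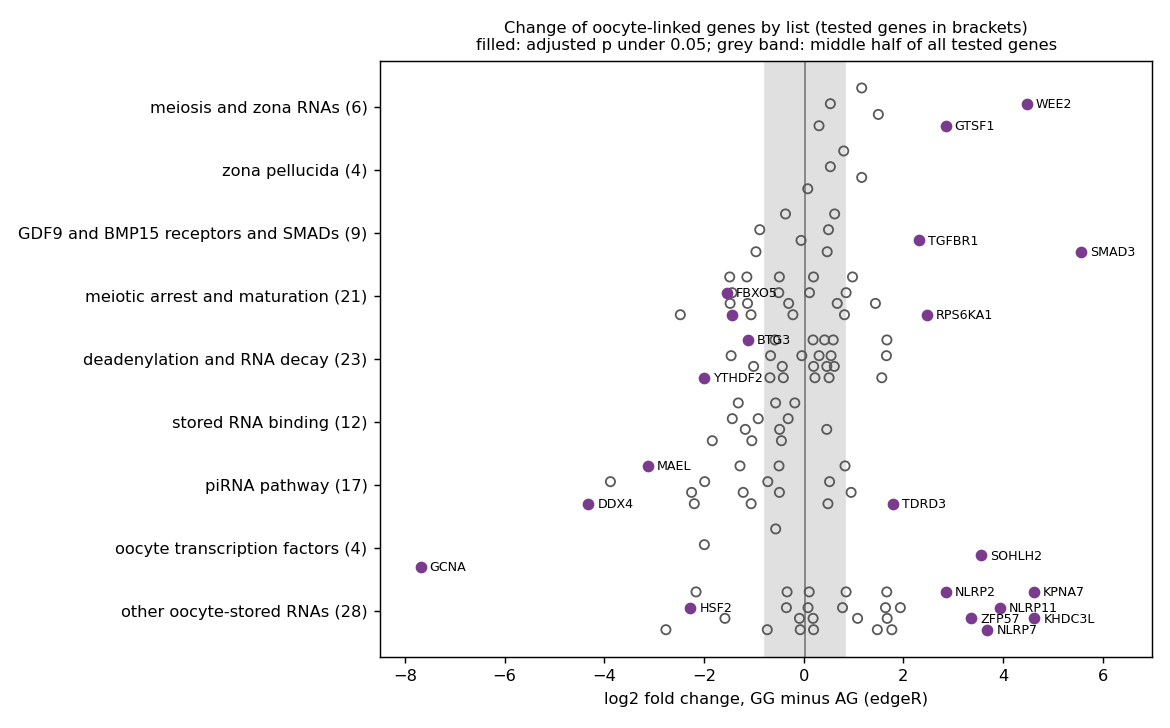
Each point is a tested gene at its log2 fold change, GG minus AG (horizontal axis), in rows by gene list; filled points passed the edgeR test, and all but 1 are named, and the grey band spans -0.78 to 0.84, the central part of all tested genes. WEE2 and GTSF1 lie at 4.47 and 2.85, the 4 zona genes and all 12 genes binding stored RNA are open points, and MAEL and DDX4 lie on the opposite side from GTSF1.

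The replicates of a group differed by over 2-fold for several of the 6 tested genes. GG replicate 1 exceeded GG replicate 2 by over 2-fold for 3 of the 6 tested genes, WEE2, ZP2 and ZAR1 (2.25-fold, 95% counting interval 1.08 to 4.89), and 0 of the 6 differed so far the other way; over all tested genes the shares were 8.12% and 9.73%. GTSF1, ZP3 and BTG4 were closer between the GG libraries, with log2 ratios of -0.04, 0.27 and 0.49. In AG, replicate 1 exceeded replicate 2 by over 2-fold for GTSF1 (2.05-fold), ZP3 (2.88-fold) and BTG4 (3.98-fold), while WEE2 (2.58-fold) and ZAR1 were higher in replicate 2. ZP2 was higher in replicate 1 of AG too, by 1.82-fold (95% counting interval 1.13 to 2.93). In AG the shares over all tested genes were 14.2% and 17.9%. None of the 6 was over 2-fold higher in replicate 1 of both groups, but ZP2, ZP3 and BTG4 were higher there in both. For ZP3 the 95% counting interval of the GG ratio included 1 (0.838 to 1.74).

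Other oocyte RNAs also differed between the GG libraries, and several of them between the AG libraries in the same replicate order. Of 28 tested, 8 were over 2-fold higher in GG replicate 1 than in GG replicate 2, and 0 were over 2-fold lower. The 8 were NLRP4, NLRP5, NLRP13, NLRP14, KPNA7, ACCSL, OTX2 and DNMT1, named after their values were seen. The ratio of GG replicate 1 to GG replicate 2 was 5.33 for KPNA7, 4.84 for NLRP13, 4.93 for NLRP14, 4.22 for NLRP4, 4.10 for ACCSL, 3.91 for DNMT1 and 2.02 for OTX2, and NLRP5 had 13 and 2 counts. Of the 8, 5 were also over 2-fold higher in AG replicate 1 than in AG replicate 2. Over all tested genes, 1074 were over 2-fold higher in GG replicate 1, and 346 of these were so in AG replicate 1 too. Those over 2-fold higher in replicate 1 of both groups were thus 5 of the 28, beside 2.62% of all tested genes. The ratios in AG were 11.1 for OTX2, 8.27 for ACCSL, 3.15 for NLRP13, 2.62 for DNMT1 and 2.14 for NLRP5. For NLRP4 (1.50), NLRP14 (1.05) and KPNA7 (0.519) the 95% counting interval of the AG ratio included 1, so no direction was detectable at this depth. Other RNAs of the same list were lower in GG replicate 1, with log2 ratios of -0.18 for NLRP7 and -0.38 for OOEP. The ratios were -0.75 for KHDC3L, -0.76 for ZFP57, -0.79 for HSF2 and -0.85 for TCL1B. The median log2 ratio of the 28 in GG was 0.13. In AG, 9 of the 28 were over 2-fold higher in replicate 1 (14.2% over all tested genes). Another 5 were over 2-fold higher in AG replicate 2 (17.9%). Each group holds a single pair of libraries, so these differences have no test.

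**Figure D4:**
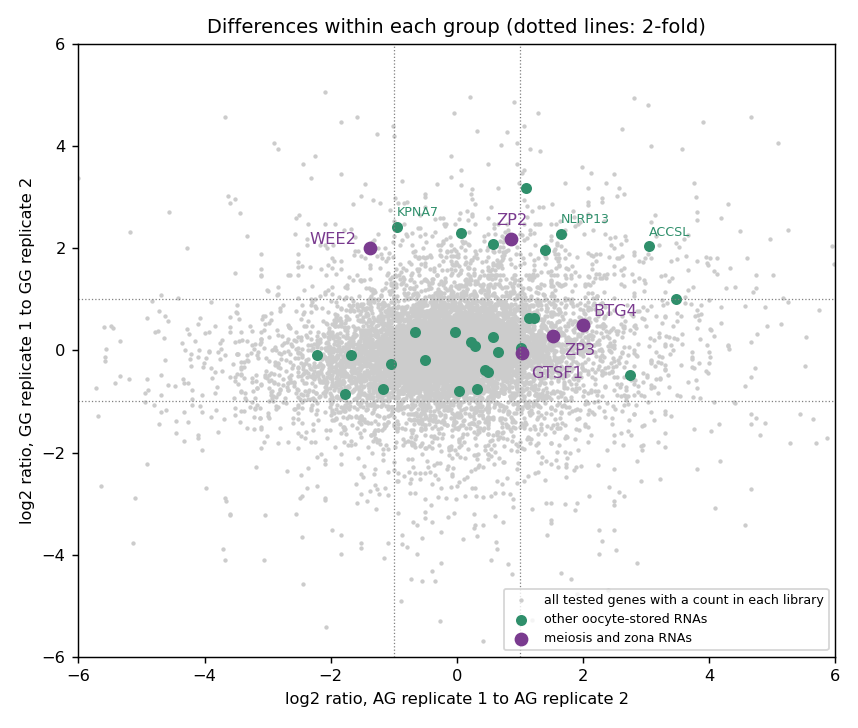
Each point is a tested gene with counts in all 4 libraries, placed by the log2 ratio of AG replicate 1 to AG replicate 2 (horizontal) and of GG replicate 1 to GG replicate 2 (vertical); 828 genes with a 0, ZAR1 among them, are not drawn and 28 lie beyond the axes. On the vertical axis WEE2, ZP2, KPNA7, NLRP13 and ACCSL lie near 2 and GTSF1, ZP3 and BTG4 between -0.04 and 0.49. On the horizontal axis WEE2 (-1.37) and KPNA7 lie to the left of 0, and the others named lie to the right, with ACCSL (3.05) beyond BTG4 (1.99).

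The genes whose profile over the 4 libraries was most like that of WEE2 were AVIL, KPNA7 and MOGAT2, by the root mean square difference of centred log2(CPM + 1), at 0.0836, 0.267 and 0.311. AVIL stood at 0.214 and 0.914 CPM in the AG pair and 39.7 and 9.55 CPM in the GG pair, and MOGAT2 at 0.712 and 3.50 CPM in the AG pair and 54.5 and 22.6 CPM in the GG pair. For GTSF1 they were EPB41L3, GDE1 and XAGE3, at 0.0638, 0.0945 and 0.121. GDE1 stood at 28.6 and 16.6 CPM in the AG pair and 163 and 155 CPM in the GG pair. In the AG pair EPB41L3 had 19 and 3 counts and XAGE3 had 36 and 9. AG replicate 1 exceeded AG replicate 2 by 8.88-fold for EPB41L3 and 5.61-fold for XAGE3, against 2.05-fold for GTSF1. EPB41L3 and XAGE3 were not called (edgeR adjusted p = 0.0525 and 0.0544), whereas GDE1 was (0.0168). Adding 1 to the CPM shrinks differences at levels this low, so the measure partly hides them. The likeness rests on 4 libraries and is a description.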

How the data were processed

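RNA of 2 AG and 2 GG morula libraries was measured after amplification with a SMARTer kit for ultra-low input, per the labels' protocols. The deposited table holds the authors' estimated counts per Ensembl gene, not scaled to library size. The submitters' processing notes list Trim Galore, STAR 2.6.0c, Salmon 0.12.0 and the build rheMac8, with no role or order; the annotation release and strand setting are not given in the sources used. Symbols were matched by identifier for 68.8% of genes, taking the identifier with most reads. Estimated counts were rounded and tested with edgeR 4.0.16 in R 4.3.3: filterByExpr (minimum count 10, minimum total 15), TMM, quasi-likelihood F test of group, Benjamini-Hochberg adjustment, threshold 0.05. The script was tested on simulated data. Standard errors are those implied by the F statistic. DESeq2 1.42.0, other scalings and filters, a replicate block and leaving out each library were alternatives. Members and lists were chosen with earlier results of these data known. Named genes are all members, up to 6 called genes by smallest p per list, paralogs of members, and the 3 genes most like each called member; others are marked. A called gene of the meiosis list is not reported here. A promoter motif search was not run, as sequences were not used here.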

Additional observations from a re-analysis of the deposited data

How the results depend on the processing

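The 2 calls among the meiosis and zona RNAs, WEE2 and GTSF1, held with DESeq2, both other scalings, both other filters, summed identifiers and the replicate block, and kept their sign in every fit. Leaving out 1 library gave 0 to 3 called. Over all genes, 1709 were called, 3333 with DESeq2, 2609 without a filter on low counts and 84 to 3786 with 1 library left out. Of neighbouring list genes 19 were called, 30 with DESeq2 and 3 to 39 with 1 library left out. Of 21 called genes in all, 18 lost the call without GG replicate 1 and 17 without GG replicate 2, when fewer samples and the AG spread alone set the test. The lone GG library is then assumed to vary like the AG pair. Signs turned for uncalled genes: with 1 library left out, log2 fold changes ranged from -0.28 to 1.84 for ZP2, from -0.065 to 1.47 for ZP3, from -0.65 to 6.94 for ZAR1 (no AG count left at the upper end), from -2.54 to 0.26 for ZAR1L and from -1.97 to 1.48 for ZP1, with -0.094 for ZP1 with the replicate block; the cause was not tested. Replicate numbers are shared by the groups, but nothing says that they pair embryos (correlation of replicate differences across genes 0.108). With the replicate block 1697 genes were called over all, 2 of the meiosis and zona RNAs and 17 neighbouring list genes; TGFBR1, BTG3 and TDRD3 were among those that lost their calls (adjusted p = 0.0570, 0.0521 and 0.0511). Depth limits MOS and ZAR1, at 0 to 22 counts in a library.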

Other observations

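Some oocyte-linked genes were not tested, and their counts add a description of the same libraries. Of 15 matched genes of the neighbouring lists that missed the filter, 9 had their highest level in GG replicate 1 and 3 in AG replicate 2. AG replicate 1 and GG replicate 2 were highest for 1 each, and 1 had no counts. The filter asks for a minimum level in 2 libraries, so a gene high in 1 library alone misses it. This tally is therefore shaped by the filter, and the share over all untested genes was not computed. The following were chosen after their values were seen. PABPN1L, a poly(A)-binding partner of BTG4 in maternal RNA decay, had 0 and 8 counts in AG and 78 and 12 in GG, a ratio of GG replicate 1 to GG replicate 2 of 9.05 (95% counting interval 4.90 to 18.3). TBPL2, the TATA-binding protein relative of the oocyte, had 2 and 3 counts in AG and 31 and 9 in GG. H1-8, the oocyte linker histone, had 0 and 3 counts in AG and 36 and 13 in GG. PATL2, a repressor of stored RNA, had 6 and 0 counts in AG and 27 and 2 in GG. FIGLA had 12 counts in GG replicate 1 and 0 in the other 3 libraries. All of these are among the 9 highest in GG replicate 1. Of those highest in an AG library, ACVR1B had 2 and 19 counts in AG and 8 and 0 in GG. PLD6 had 0 and 7 counts in AG and 1 and 0 in GG. PIWIL4 had 10 and 0 counts in AG and 0 and 0 in GG. ZSCAN10 had 0 and 5 counts in AG and 0 and 5 in GG. None of these genes was tested, and their counts are not scaled to library depth.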
